A study of Oryctolagus cuniculus with 3 samples.

Results

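The exon-overlapping long non-coding transcripts of the rabbit cumulus-oocyte complex are 336 of the 15335 transcripts in the deposited long non-coding table. They were chosen by class code o, which by the usual convention marks an assembled transcript that shares exonic sequence with an annotated transcript of the same strand but none of its splice junctions. No expression value entered the choice. The other transcripts of the table are 743 that share a junction with an annotated transcript, 396 antisense, 3815 intronic, 5754 intergenic and 4291 known ones. The cumulus-oocyte complex is the egg cell with the somatic cumulus cells that surround it.

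Female IRA rabbits, 150 in all and 35 days old at the start, were housed for 4 weeks in rooms with controlled air. The control group (CG) breathed air with under 3 ppm of ammonia, the low ammonia group (LAC) 10 ppm and the high ammonia group (HAC) 30 ppm. The complexes were collected after slaughter, and ribosomal RNA was depleted before sequencing. Each group has 1 library. Differences below therefore have no replicate check, and no test was run on them. The labels do not say how many rabbits a library stands for.

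Long non-coding RNAs that overlap the exons of a gene on its own strand are the class nearest to ordinary gene products. Such a transcript can use a promoter of its own, start in an intron, or be a stretch of the gene's RNA that was assembled apart from it. Some overlapping transcripts are known to affect the splicing, stability or transcription of the gene they overlap, and for most of them no function is known. Short reads from the shared exon fit the gene and the transcript alike, so the level given to each depends on how reads were divided between them. In the cumulus-oocyte complex the growing egg stores RNA that it uses after transcription stops, and the cumulus cells around it remain transcriptionally active.

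The files gave 70891162 to 72520954 valid reads per library, of which 90.3% to 93.2% mapped and 25.4% to 27.0% mapped to more than 1 place. The gene tables of the LAC and HAC files are identical and both are headed LAC, and the read totals of their statistics blocks are exchanged. Which ammonia group these libraries came from is therefore uncertain, and LAC and HAC below mean the libraries with those labels. Gene-level values were used for LAC and CG alone. Of the oocyte markers, 14 of 15 were found and 14 were lower in LAC, with a summed 902 CPM (counts scaled to the library total) in LAC against 4663 CPM in CG. Granulosa and cumulus markers summed to 14875 CPM in LAC and 15760 CPM in CG, with 0 of 7 past the size rule, a difference of at least 1 on the log2(value + 1) scale. The 6 stroma markers summed to 80.6 CPM in LAC and 26.3 CPM in CG, with 4 past the size rule, higher in LAC. The 3 blood markers found summed to 12.9 CPM in LAC and 3.26 CPM in CG, with 1 past the rule, higher in LAC. The 4 epithelium markers summed to 21.8 CPM in LAC against 82.9 CPM in CG but did not move together, with 2 lower and 1 higher in LAC past the rule. None of the markers found was at 0 in both libraries, and none was overlapped by an exon-overlapping transcript. The part of these cell types in the differences below was not tested, and fewer oocytes and less RNA per oocyte cannot be told apart in such bulk libraries.

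Exon-overlapping transcripts had the longest median span along the genome of the classes in the table. They spanned a median of 46.8 kb from first to last base (quartiles 18.9 and 68.1 kb), with a longest span of 461 kb. Junction-sharing transcripts had a median span of 12.6 kb, antisense transcripts 17.0 kb, known transcripts 9.23 kb, intronic transcripts 1.00 kb and intergenic transcripts 0.878 kb. The exonic sequence was also the longest by median, at 1430 bases (quartiles 582 and 2834). The medians of the other classes were 1306 bases for junction-sharing, 960 for known, 851 for intronic, 745 for antisense and 654 for intergenic transcripts. Most of the structures were simple. Of the 336 transcripts, 292 had 2 exons, 31 had 3 and 13 had more, up to 6, and none had 1 exon. Transcripts of 2 exons made up 86.9% of the class, against 22.9% of the junction-sharing and 69.2% of the antisense class. The typical member thus joins 2 exons over a long intron. The authors' coding scores reached at most 0.49 for CPC and at most 0 for CNCI. The junction-sharing, intronic and intergenic classes had these same maxima, and the antisense class had 0.42 and 0. The bounds are therefore not particular to the exon-overlapping class.

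**Figure D1:**
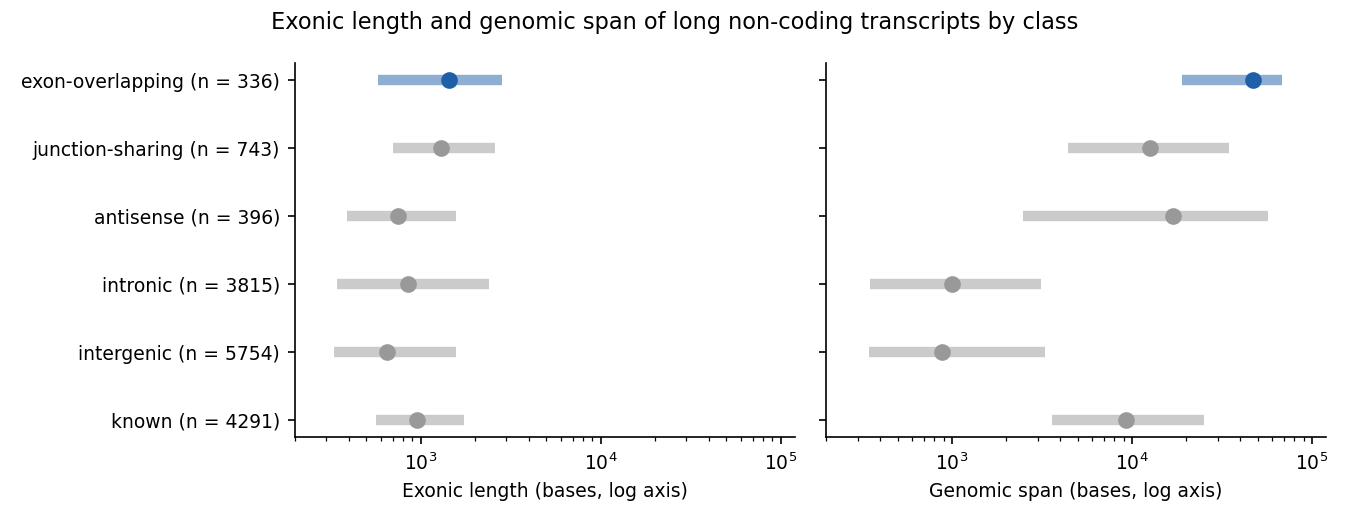
Exonic length (left, bases) and genomic span (right, bases) of long non-coding transcripts by class, both on log axes; points are medians, bars run from the first to the third quartile, and the exon-overlapping class is in blue. Median exonic lengths run between 654 and 1430 bases, and the exon-overlapping class has the longest median of both measures, with a span of 46.8 kb.

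All 336 transcripts lay over an annotated gene of their own strand, here called the host gene, and named 283 different hosts at 303 loci. Hosts with a RefSeq messenger RNA held 243 of the transcripts, hosts with a RefSeq non-coding RNA 50, and hosts known only as a gene record, such as pseudogenes and transfer RNA genes, 43. Coding hosts in another locus than their member were long genes. These 165 hosts had a median span of 116 kb, against 16.8 kb for all 20008 coding rows, and a median level of 84.0 CPM in CG against 4.96 CPM. The 41 coding hosts in the same locus as their member had a median span of 21.7 kb and a median of 18.8 CPM in CG. The span of a host is that of its row in the gene table, an assembled locus that can join several genes. For 87 transcripts this locus is also that of the transcript, so that a place within it means little. Of the 249 with a host in another locus, 97 lay within its span, 65 reached past its 5′ end, 23 past its 3′ end and 64 past both ends. The plus strand held 212 and the minus strand 124. In 58 transcripts both ends lay inside loci of the opposite strand, and in 71 others 1 end did. The libraries mark the strand, but the labels do not say whether abundance was computed by strand. For these transcripts, reads of the opposite gene may therefore not be told apart from the member's own.

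Hosts include regulators of chromatin, such as JARID2, a component of Polycomb complexes, ARID1B, a subunit of the SWI/SNF remodeller, and KMT2E. They include RNA-binding proteins such as QKI and MBNL1, and signalling genes such as BMPR1B, a bone morphogenetic protein receptor, ERBB4, ESR1 and TCF7L2. These hosts are named here for their function, after their values were seen, and no enrichment was tested. Of the gene lists examined, the cell cycle list had 1 host (RAD51C), the extracellular matrix list 1 (ADAMTS6) and the list of gonadotropin and steroid receptors 1 (ESR1). No host was in the oocyte, granulosa and cumulus, cumulus expansion, ribosomal protein, ammonia and glutamine, stress response, theca, stroma, endothelium, blood or epithelium lists. These lists had from 3 (blood) to 31 (ribosomal protein) genes in the gene table. With 207 coding host symbols beside 20008 coding rows, few hosts would fall in lists of this size, and no depletion was tested.

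Most exon-overlapping transcripts were of low abundance. The deposited FPKM (fragments per kilobase of transcript, scaled to the depth of the library) had a median of 1.69 in CG, 2.01 in LAC and 1.92 in HAC. At least 5 FPKM was reached by 43 transcripts in CG, 57 in LAC and 51 in HAC, and 18, 26 and 17 were listed at 0. Few members carried most of the signal: of the class's summed FPKM the 5 highest held 49.8% (CG), 64.4% (LAC) and 69.8% (HAC). Read support was estimated from the deposited coverage times length over reads of 150 bases. A member had a median of 111 reads in CG, 109 in LAC and 126 in HAC, and those under 500 bases had 21.1, 16.2 and 22.6. A bound set after the values were seen, a mean of at least 50 FPKM, picked the 7 loci that held such a member. Their 17 members summed to 1856 FPKM in CG, 4503 FPKM in LAC and 4517 FPKM in HAC. The other 319 summed to 960 FPKM in CG, 953 FPKM in LAC and 1027 FPKM in HAC. The split rests on the same values that are summed, so it is a description only. The 7 loci did not move together. Members of MSTRG.16852 alone summed to 352 FPKM in CG, 2805 FPKM in LAC and 2939 FPKM in HAC. Those of MSTRG.25287 summed to 1196, 669 and 1097 FPKM.

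**Figure D2:**
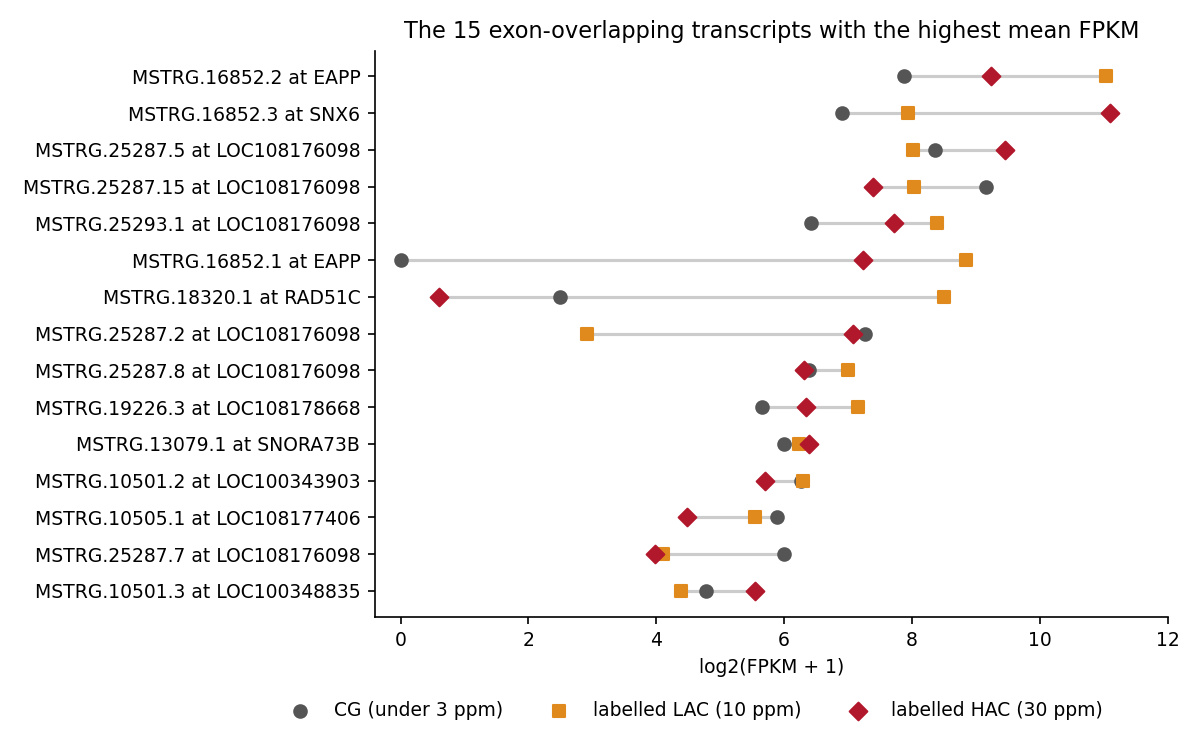
Level of the 15 exon-overlapping transcripts with the highest mean FPKM, as log2(FPKM + 1), in the single library of each group (circle CG, square LAC, diamond HAC); a grey line joins the lowest and the highest library. MSTRG.16852.2, MSTRG.16852.1 and MSTRG.18320.1 are highest in LAC, MSTRG.16852.3 is highest in HAC, and MSTRG.25287.2 is lowest in LAC.

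The largest values came from 1 locus between EAPP and SNX6, MSTRG.16852 on the minus strand of sequence NC_013685.1 in OryCun2.0. EAPP encodes a phosphoprotein that binds E2F transcription factors, and SNX6 a sorting nexin of the retromer pathway that returns cargo from endosomes. MSTRG.16852.2, with 4 exons from 54322072 to 54371537, stood at 234 FPKM in CG, 2104 FPKM in LAC and 600.0 FPKM in HAC. MSTRG.16852.1, with the same ends and 3 exons, was listed at 0 in CG and had 459 FPKM in LAC and 149 in HAC. MSTRG.16852.3, which reaches to 54472861 over SNX6, was at 119 FPKM in CG, 243 FPKM in LAC and 2190 FPKM in HAC. The EAPP transcripts were thus highest in LAC and the SNX6 transcript in HAC. MSTRG.16852.2 was 8.99-fold higher in LAC than in CG (95% interval 8.71 to 9.28, from an exact binomial calculation on read numbers that covers counting error only, as do all intervals here). MSTRG.16852.3 was 18.5-fold higher in HAC than in CG (17.5 to 19.5). It was 2.05-fold higher in LAC than in CG, a difference that scaling by median-of-ratios factors brings below the size rule, to 0.58 on the log2 scale.

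The summed level of the 3 members differed less between the ammonia libraries than each member did. They summed to 352 FPKM in CG, 2805 FPKM in LAC and 2939 FPKM in HAC. The locus also holds 2 transcripts classed as intergenic. MSTRG.16852.4 stood at 827 FPKM in CG, 395 FPKM in LAC and 1411 FPKM in HAC, and MSTRG.16852.5 had 573, 921 and 0 FPKM. The members made up 20.1% of the long non-coding FPKM of the locus in CG, 68.1% in LAC and 67.6% in HAC. In the host genes' own rows, EAPP had 32.2 CPM in LAC against 42.0 CPM in CG, and SNX6 57.2 CPM in LAC against 72.2 CPM in CG. The end of the EAPP transcripts with the higher coordinate, which is their 5′ end, lies inside an unannotated locus of the plus strand, MSTRG.16853, which had 19897 CPM in LAC against 8454 CPM in CG. Its part in the members' values was not tested.

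RAD51C, which encodes a protein needed for the repair of DNA by homologous recombination, is overlapped by MSTRG.18320.1 on the minus strand of NC_013687.1, from 29548435 to 29605374. It was at 4.66 FPKM in CG, 359 FPKM in LAC and 0.51 FPKM in HAC. The library labelled LAC stands far above both others, 77.1-fold above CG (69.2 to 86.3). The locus has a further transcript classed as intergenic, MSTRG.18320.3, with 911 FPKM in CG, 64.0 FPKM in LAC and 980 FPKM in HAC. Where the member is high its neighbour is low: the member made up 0.509% of the long non-coding FPKM of the locus in CG, 84.9% in LAC and 0.0520% in HAC. Their sum was 916 FPKM in CG, 423 FPKM in LAC and 980 FPKM in HAC. The gene table's count for the whole locus ran the other way, with 403687 counts in LAC against 266506 in CG. RAD51C itself had 7.97 CPM in LAC against 12.9 CPM in CG. The member's 5′ end lies inside the plus-strand locus MSTRG.18322, which had 8610 CPM in LAC and 6117 CPM in CG.

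The host LOC108176098 is shared by 6 members. It is described as similar to translation initiation factor IF-2 and lies on the unplaced sequence NW_003159740.1. The members lie within 92.6 kb that also hold RN18S, the 18S ribosomal RNA gene, and 1 of them, MSTRG.25293.1, overlaps RN18S. MSTRG.25287.15 stood at 571 FPKM in CG, 261 FPKM in LAC and 167 FPKM in HAC, which is 3.42-fold lower in HAC than in CG (3.35 to 3.49). MSTRG.25287.5 had 327, 258 and 702 FPKM in the same order. MSTRG.25287.2 was at 153 FPKM in CG, 6.56 FPKM in LAC and 134 FPKM in HAC, and was 23.3-fold lower in LAC than in CG (21.8 to 24.9). These 3 differ in which library is the extreme one, although their spans overlap. MSTRG.25287.7 stood at 62.9 FPKM in CG, 16.3 FPKM in LAC and 14.7 FPKM in HAC. MSTRG.25287.8 had 82.4, 127 and 78.2 FPKM, and MSTRG.25293.1 had 84.5, 333 and 210 FPKM. The 5 members of MSTRG.25287 summed to 1196 FPKM in CG, 669 FPKM in LAC and 1097 FPKM in HAC. With the intergenic transcripts of that locus the sums were 3024, 2217 and 4526 FPKM, highest in HAC. The lower coordinate of all 6 lies within MSTRG.25288, a locus of the opposite strand with 7397 CPM in LAC and 8682 CPM in CG. The RN18S row itself had 0 counts in both LAC and CG.

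A further group of 8 members lies in a histone gene cluster. Their 2 loci, MSTRG.10501 and MSTRG.10505 on opposite strands, fall in a 212 kb region of NC_013680.1 (10819428 to 11030987), where 15 of 25 annotated loci are described as histones. HFE, which encodes a regulator of iron uptake, lies in the region, as it does beside the histone cluster in humans. Histone genes supply the proteins that package DNA, and most of their messages lack introns and a poly(A) tail, so that libraries made by depleting ribosomal RNA retain them. The 7 members here that the naming rule picked span 4 to 14 loci described as histones. MSTRG.10501.2 over LOC100343903 was at 75.5 FPKM in CG, 77.9 FPKM in LAC and 51.1 FPKM in HAC. MSTRG.10501.3 over LOC100348835, named H1-4 in RefSeq, stood at 26.4 FPKM in CG, 19.98 FPKM in LAC and 45.5 FPKM in HAC. On the other strand MSTRG.10505.1 over LOC108177406 had 58.0, 45.6 and 21.3 FPKM. Its neighbour MSTRG.10505.2, outside the naming rule and added after its values were seen to complete the region, had 7.37, 25.7 and 20.6 FPKM.

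In the histone region single members differed more between libraries than the sums of the loci did. MSTRG.10505.3 over LOC100344156, a histone H1.3 gene, was at 10.9 FPKM in CG, 4.92 FPKM in LAC and 51.0 FPKM in HAC, 4.67-fold higher in HAC than in CG (3.96 to 5.54). Of the 3 members over HFE, 2 were highest in LAC and 1 in HAC. MSTRG.10501.4 was listed at 0 in CG and HAC and had 13.8 FPKM in LAC, MSTRG.10501.6 had 3.00, 7.80 and 0.95 FPKM in CG, LAC and HAC, and MSTRG.10501.8 had 1.38, 0.76 and 9.66 FPKM. The 5 members of MSTRG.10501 summed to 106 FPKM in CG, 120 FPKM in LAC and 107 FPKM in HAC. The 3 of MSTRG.10505 summed to 76.3, 76.1 and 92.9 FPKM. MSTRG.10501.2 and MSTRG.10505.3 lie opposite each other with starts 50 bases and ends 5 bases apart, and MSTRG.10501.3 and MSTRG.10505.1 with starts 1 base and ends 9 bases apart. Such a partner on the opposite strand, within 100 bases at both ends, was found for 7 of the 336 members (2.08%), for 0 of 743 junction-sharing and for 2 of 396 antisense transcripts. These are not independent cases. Of the 7, MSTRG.13629.2, which is outside the naming rule, and MSTRG.24023.3 lie elsewhere. The rest lie in this histone region and are partners of each other, so that a pair is counted from both sides. The partners of MSTRG.13629.2 and MSTRG.24023.3 are the same 2 antisense transcripts.

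**Figure D3:**
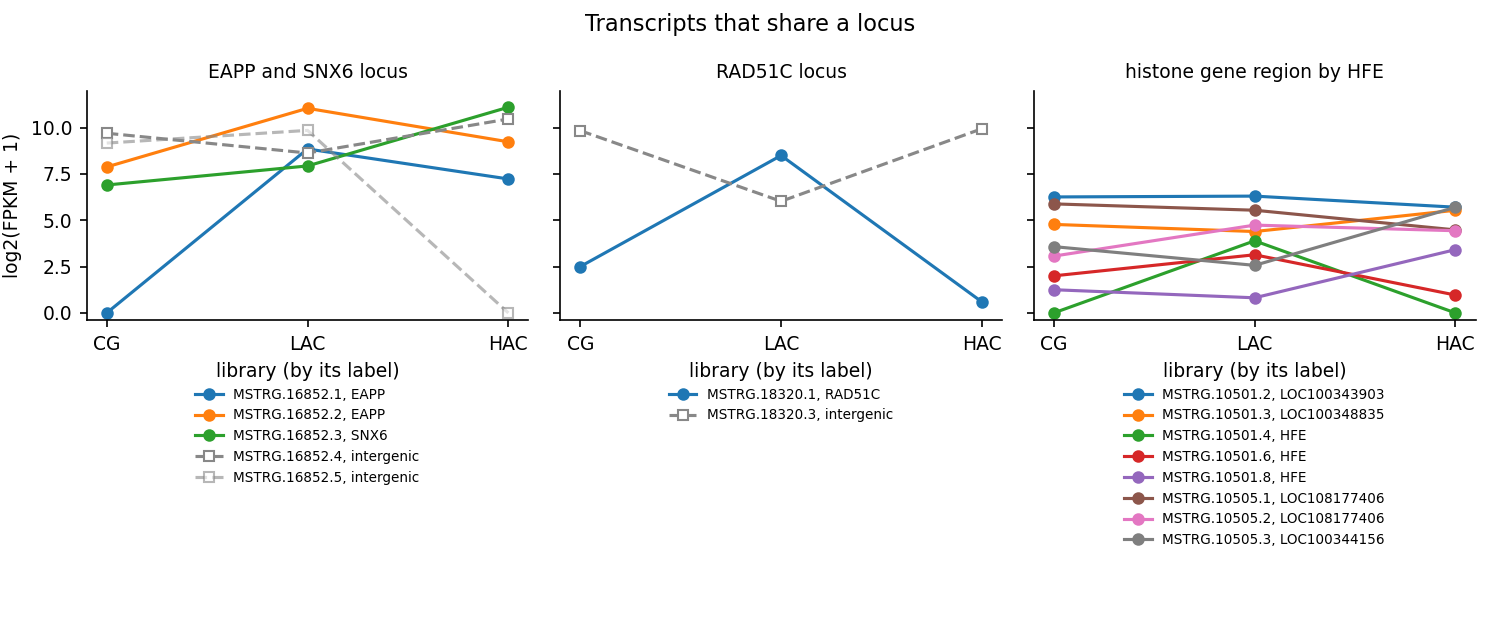
Level, as log2(FPKM + 1), of the transcripts at the EAPP and SNX6 locus, the RAD51C locus and the histone gene region by HFE in the single library of each group, in order of the labelled ammonia concentration; filled circles are exon-overlapping transcripts and open squares are other long non-coding transcripts of the locus. At RAD51C the member peaks in LAC at 359 FPKM where the intergenic transcript is lowest at 64.0 FPKM, and lines cross within each region.

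Further members begin and end in opposite-strand loci of histone, tubulin or ribosomal protein genes. MSTRG.12150.1 over LOC100354956, named H4C14 in RefSeq, stood at 2.47 FPKM in CG, 0.03 FPKM in LAC and 48.4 FPKM in HAC, 19.6-fold higher in HAC than in CG (13.6 to 29.8), and both its ends lie in an opposite-strand locus described as histone H2B. The H4C14 row itself had 89.8 CPM in LAC and 85.7 CPM in CG. MSTRG.4781.1 over LOC100357307 was at 35.8 FPKM in CG, 0.91 FPKM in LAC and 0.82 FPKM in HAC, 39.3-fold lower in LAC than in CG (22.7 to 77.8) and 43.6-fold lower in HAC than in CG (24.5 to 83.9). Its ends lie in TUBA1B and in a gene described as tubulin alpha-1A, both on the opposite strand, which had 539 and 338 CPM in LAC against 660 and 416 CPM in CG. MSTRG.7898.1 over LOC100125981, described as the glucose transporter SLC2A3, had 34.1 FPKM in CG, was listed at 0 in LAC and had 14.4 FPKM in HAC. Its ends, 412 kb apart, lie in 2 opposite-strand genes both described as 40S ribosomal protein SA. The labels do not say how reads that fit several copies of a gene family were assigned, so these levels are uncertain.

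Some members at small hosts, among them pseudogenes, were listed at 0 in 1 or more libraries. MSTRG.3815.1 at LOC100343199, a pseudogene described as the RNA polymerase II subunit RPB4, stood at 25.7 FPKM in CG, 0 FPKM in LAC and 9.99 FPKM in HAC. MSTRG.4371.2 at the pseudogene LOC100358078 was listed at 0 in CG and LAC and had 16.0 FPKM in HAC. MSTRG.2192.2 at LOC100339454, described as ribosomal protein S27-like, had 9.92 FPKM in CG against 0 in both ammonia libraries. The same pattern was seen for MSTRG.92.3 at the pseudogene LOC100339691, with 6.29 FPKM in CG. The 2 members of that locus together had 0.90 FPKM in HAC. A member listed at 0 did not always mean a silent locus. The gene table's counts for whole loci were 1772 in CG and 912 in LAC for MSTRG.3815, and 1625 and 1085 for MSTRG.4371. For MSTRG.92 they were 865 in CG and 1325 in LAC, higher where the member was listed at 0. For MSTRG.7898, described above, they were 618 in CG and 0 in LAC, so that locus had no counts where its member was listed at 0. MSTRG.24023.3 at LOC100342501, a polyubiquitin gene, was at 8.69 FPKM in CG, 10.5 FPKM in LAC and 41.9 FPKM in HAC, 4.82-fold higher in HAC than in CG (3.99 to 5.89). An antisense transcript with ends 2 and 79 bases from it, MSTRG.24024.1, had 36.2, 70.1 and 201 FPKM in the same order. Over the class, 294 members were above 0 in all libraries. The highest value among the 7 listed at 0 in CG and HAC was 13.8 FPKM. It was 34.1 FPKM among the 14 listed at 0 in LAC alone and 9.92 FPKM among the 7 listed at 0 in LAC and HAC.

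Outside these regions, an abundant member with close values was MSTRG.13079.1, for which no difference passed the size rule. It lies at SNORA73B, a small nucleolar RNA gene, and stood at 62.7 FPKM in CG, 74.0 FPKM in LAC and 83.1 FPKM in HAC. MSTRG.19226.3 at LOC108178668, an uncharacterized non-coding gene, was at 49.4 FPKM in CG, 142 FPKM in LAC and 79.9 FPKM in HAC, 2.87-fold higher in LAC than in CG (2.57 to 3.22). It moved with its locus: its junction-sharing neighbour stood at 331 FPKM in CG, 894 FPKM in LAC and 418 FPKM in HAC and the known transcript 449, 1179 and 685 FPKM. The member held 5.96% of the long non-coding FPKM of the locus in CG, 6.41% in LAC and 6.76% in HAC. This contrasts with RAD51C, where the shares were exchanged.

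Over other coding genes, PGER2 and DDI1 carried long members. PGER2 encodes an aldo-keto reductase described as prostaglandin E2 9-reductase, of a family that in the rabbit ovary also metabolises steroids. MSTRG.22113.1 over PGER2, 112 kb long and reaching past both ends of the gene, was at 26.1 FPKM in CG, 17.9 FPKM in LAC and 9.33 FPKM in HAC, 2.80-fold lower in HAC than in CG (2.59 to 3.02). MSTRG.22113.2, at the same locus, had 9.06, 0.48 and 0.04 FPKM. The PGER2 row itself had 0 counts in both LAC and CG, the transcript overlaps 4 annotated loci of its strand, PGER2 among them, and both its ends lie in loci of the opposite strand. MSTRG.915.1 over DDI1, which encodes a protease-like protein that binds ubiquitin, stood at 0.14 FPKM in CG, 8.11 FPKM in LAC and 1.55 FPKM in HAC, 57.9-fold higher in LAC than in CG (47.2 to 69.4). Both its ends lie in PDGFD, on the opposite strand, which had 681 CPM in LAC and 602 CPM in CG. The locus of MSTRG.915.1 also holds other long non-coding transcripts, named after PDGFD. In CG, LAC and HAC, MSTRG.915.2 had 2.20, 0.99 and 7.94 FPKM and MSTRG.915.3 had 1.99, 0 and 0 FPKM. MSTRG.915.4 had 4.41, 7.20 and 5.61 FPKM.

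MSTRG.9704.1 over TMEM243 and MSTRG.22312.1 at RLIM, an E3 ubiquitin ligase that acts in X inactivation in mice, were listed above 0 in LAC alone. TMEM243's transcript had 7.52 FPKM there, from 1398 reads, and RLIM's 5.67 FPKM, from 689 reads. Their host rows differed less, with 22.5 CPM in LAC and 19.1 CPM in CG for TMEM243. The RLIM row, whose locus includes the member, had 192 CPM in both. MSTRG.8003.1 at MRPL57, a subunit of the mitochondrial ribosome, was at 0.06 FPKM in CG, 4.71 FPKM in LAC and 9.19 FPKM in HAC, on 4.85 reads in CG. MSTRG.12309.2 at KIAA1324 had 2.00, 0.12 and 10.9 FPKM in CG, LAC and HAC, and the KIAA1324 row, whose locus includes it, had 2.37 CPM in LAC against 7.53 CPM in CG. MSTRG.21987.1, named after PRSS16, a serine protease gene, had 6.29, 0.43 and 2.26 FPKM and spans 285 kb with 29 other annotated loci of its strand. The members over the other listed hosts, ESR1 and ADAMTS6, did not pass the size rule. MSTRG.11549.1 within ESR1, the estrogen receptor alpha gene, stood at 1.16 FPKM in CG, 0.93 FPKM in LAC and 0.64 FPKM in HAC, while ESR1 itself had 168 CPM in LAC and 107 CPM in CG. MSTRG.10336.1 within ADAMTS6, a secreted metalloproteinase of the matrix, had 2.36, 1.55 and 1.28 FPKM.

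Several other members over regulators of signalling and growth are given for the known role of the host and were chosen after their values were seen. MSTRG.15967.1 at ELK4, a transcription factor of the serum response, was at 14.4 FPKM in CG, 5.04 FPKM in LAC and 13.4 FPKM in HAC, 2.86-fold lower in LAC than in CG (2.72 to 3.02), on 1824 reads in LAC. ELK4's locus, which includes it, had 131 CPM in LAC and 237 CPM in CG. PDGFD, which encodes a growth factor that signals through the PDGF beta receptor, holds MSTRG.905.1 with 5.60, 1.80 and 11.3 FPKM and MSTRG.905.3 with 8.64, 15.8 and 12.1 FPKM in CG, LAC and HAC. In LAC the first was lower and the second higher than in CG, and the first alone passed the size rule. AFF2 likewise holds MSTRG.20193.1 with 2.07, 7.32 and 3.40 FPKM and MSTRG.20193.2 with 1.39 FPKM in CG and 0 in the others. MSTRG.7842.1 over PRMT8, an arginine methyltransferase gene, stood at 41.1 FPKM in CG, 17.5 FPKM in LAC and 15.9 FPKM in HAC, while PRMT8 itself had 0.0884 CPM in LAC and 0.215 CPM in CG. MSTRG.14903.1 within BMPR1B, whose receptor binds growth factors secreted by the oocyte, had 1.87, 3.92 and 2.04 FPKM, and both its ends lie in loci of the opposite strand. MSTRG.6515.1 at PRKAR2B, a regulatory subunit of protein kinase A, had 4.61, 10.0 and 6.98 FPKM, and MSTRG.13671.1 within FNDC3B had 9.69, 14.4 and 12.5 FPKM. These last 3 were highest in LAC and below the size rule.

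The first comparison over the whole class asked how the library labelled LAC differed from CG. The members' median was higher in LAC by about as much as that of the whole table, while 12.9% of members were called lower and 9.27% higher. With a pseudocount of 0.1 that balance turned, to 64 higher and 48 lower. A transcript was called when it differed by at least 1 on the log2(FPKM + 1) scale and its higher library reached 1 FPKM or more, a scale that understates the change of low transcripts. Of 302 members tested, 28 were higher and 39 lower in LAC, which is 22.2%, against 26.1% of all 10259 long non-coding transcripts tested (13.6% higher and 12.4% lower). The median difference was 0.35 over the members and 0.32 over all transcripts. Median-of-ratios factors over all transcripts change each log2 ratio by -0.45. After this scaling the members had a median of 0.01 with 18 higher and 48 lower, and all transcripts a median of 0.02 with 766 higher and 1686 lower. In the other classes the median was 0.46 for intronic, 0.27 for intergenic, 0.10 for known, -0.10 for junction-sharing and -0.22 for antisense transcripts. The members' median thus lay between those of the intronic and the intergenic class. Of the calls, 14 of the 28 higher and 24 of the 39 lower members stayed under 5 FPKM in both libraries, and of all 28 and 39 calls 9 and 13 were listed at 0 in the lower library.

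By FPKM as deposited, HAC against CG gave a smaller median difference and a smaller share of calls than LAC against CG. Of 299 members, 35 were higher and 24 lower in HAC, which is 19.7%, against 17.2% of all 9414 transcripts tested (10.1% higher and 7.06% lower). The median was 0.14 over the members and 0.10 over all transcripts. The medians of the other classes ran between 0.07 for known and 0.14 for antisense transcripts. Of the calls, 19 of the 35 higher and 12 of the 24 lower members stayed under 5 FPKM. After median-of-ratios scaling the members' median was 0.10, with 36 higher and 26 lower of 301, against 0.01 in LAC against CG. At a minimum of 5 FPKM, 28 of 57 members were called, against 29 of 70 in LAC against CG. That HAC differed less from CG than LAC did thus depends on the processing.

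In HAC against LAC the calls were mostly higher and the median was lower. Of 306 members, 54 were higher and 18 lower in HAC, which is 23.5%, against 29.3% of all 10661 transcripts tested (16.8% higher and 12.6% lower). The median was -0.20 over the members and -0.26 over all transcripts, and median-of-ratios scaling turned the members' median to 0.07 with 58 higher and 13 lower. Of the calls, 35 of the 54 higher and 9 of the 18 lower members stayed under 5 FPKM. In the lower library 14 of the 54 and 7 of the 18 were listed at 0. With a pseudocount of 0.1 the calls were more even, at 61 higher and 45 lower. Members without a coding host had 24 higher and 2 lower of 84, and those with a coding host 30 higher and 16 lower of 222. The first set includes the 4 transcripts over the pseudogene LOC103349367, named after their values were seen. They had 2.64, 1.27, 2.69 and 1.15 FPKM in CG, 1.14, 0.69, 0.22 and 0.42 FPKM in LAC and 7.42, 4.74, 1.45 and 2.51 FPKM in HAC. All 4 were lowest in LAC.

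**Figure D4:**
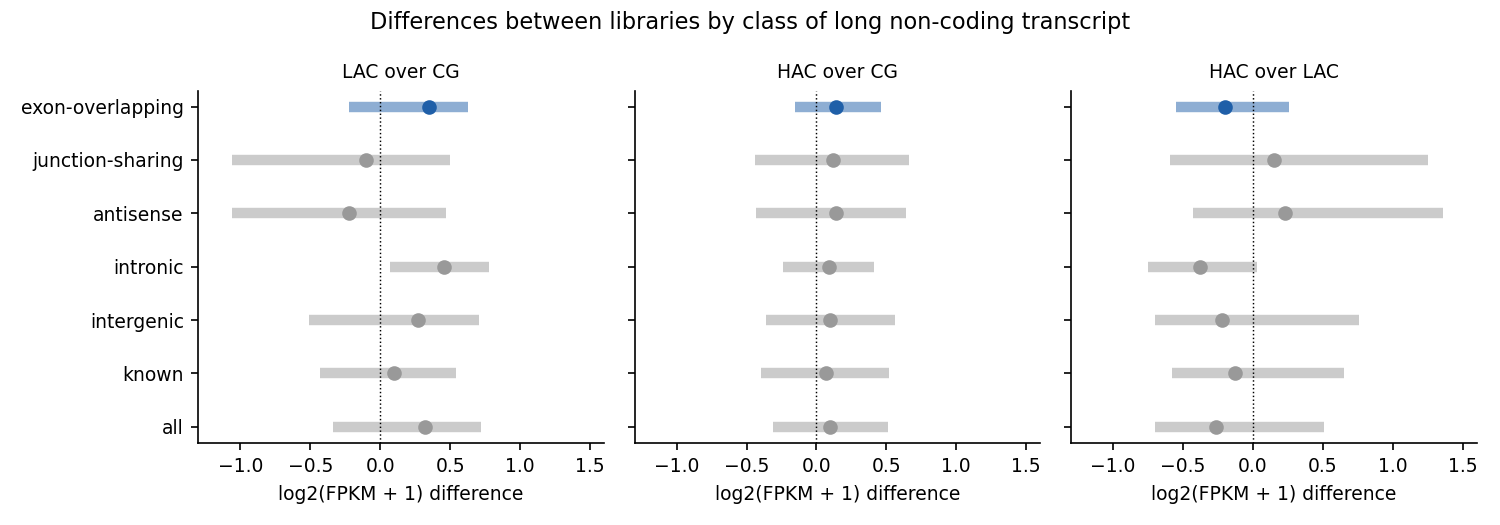
Difference in log2(FPKM + 1) between libraries by class of long non-coding transcript for LAC over CG, HAC over CG and HAC over LAC; points are medians and bars run from the first to the third quartile over transcripts that reached 1 FPKM or more in either library, with the exon-overlapping class in blue. The exon-overlapping median is 0.35, 0.14 and -0.20 and lies near that of all transcripts, shown in the lowest row.

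Short members passed the size rule more often than long ones. Of members under 500 bases, 42.9% of 63 were called in LAC against CG, 46.9% of 64 in HAC against CG and 51.5% of 66 in HAC against LAC. Of those of 1500 bases or more the shares were 16.6% of 151, 9.40% of 149 and 12.5% of 152. All long non-coding transcripts under 500 bases were called in 38.0%, 26.1% and 41.0% of cases, and those of 1500 bases or more in 14.9%, 9.62% and 15.4%. In HAC against CG the short members were thus called more often than short transcripts of the whole table, at 46.9% against 26.1%, while the long ones were called about as often. The short members are not independent of each other. All 8 members of the histone region are under 500 bases, and MSTRG.10501.6, MSTRG.10501.8, MSTRG.10505.1, MSTRG.10505.2 and MSTRG.10505.3 were among those called. Members of 1500 bases or more had a median of 0.46 in LAC against CG, and those under 500 bases 0.02. Longer members had more reads, with a median of 285 in CG against 21.1 for the short ones.

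**Figure D5:**
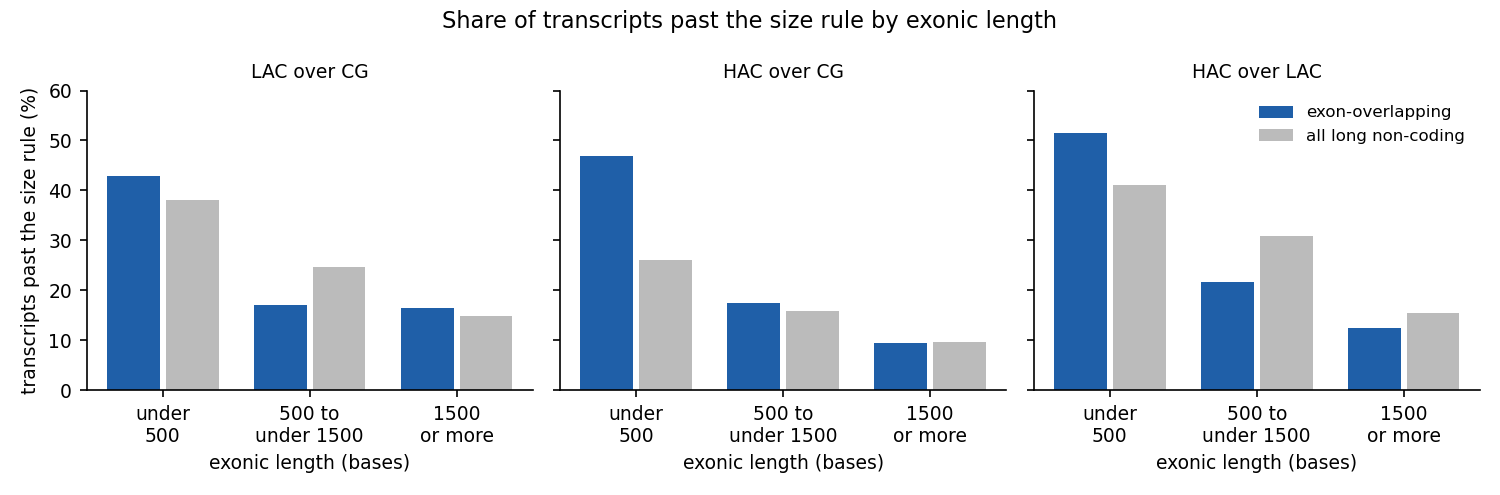
Share of transcripts past the size rule (vertical axis, %) by exonic length (horizontal axis, bases) in each comparison, for exon-overlapping transcripts (blue) and all long non-coding transcripts (grey). Exon-overlapping transcripts under 500 bases have the tallest bars, at 42.9%, 46.9% and 51.5%, and those of 1500 bases or more stand at 16.6%, 9.40% and 12.5%.

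The members were also sorted by which library stands apart, that is, the library with the greatest distance to the average of the rest, among the 109 with a range of at least 1 on the log2(FPKM + 1) scale. LAC stood apart in 44 (21 above, 23 below), HAC in 38 (34 above, 4 below) and CG in 27 (16 above, 11 below). Over all 4678 such transcripts the shares were 52.7% for LAC, 28.6% for HAC and 18.8% for CG, and among members 40.4%, 34.9% and 24.8%. Where HAC stood apart it was more often above the others, among members and over all transcripts (961 above, 375 below), as for MSTRG.16852.3 at SNX6 and MSTRG.12150.1 at H4C14. With a pseudocount of 0.1 the members' split for HAC was 30 above and 15 below. Of the 22 loci with 2 or more members, 15 had a call in LAC against CG and 2 of these had calls in both directions. In HAC against CG, 12 had a call and 3 had calls both ways, and in HAC against LAC 13 and 3.

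In LAC against CG few hosts of called members were themselves past the rule. For 211 members at loci separate from the host's, with a host of at least 10 counts, 17 were higher, and of their hosts 1 was higher and 0 lower by 1 on the log2(CPM + 1) scale, with a median host difference of -0.04. Of the hosts of the 17 lower members, 2 were lower and 0 higher, and the median was -0.16. Of the hosts of the 177 members that passed no rule, 6 were lower and 2 higher, and the median was 0.08. Across these 211 pairs the rank correlation of member and host differences was 0.19, a description across transcripts of the same 2 libraries. Over all 15009 coding rows with at least 10 counts, 12.9% passed the same rule, 283 higher and 1653 lower. Shares of the host were taken for hosts of at least 100 counts, which left 204 members in LAC and 205 in CG. A member's estimated counts were a median of 6.27% of its host's in LAC and 3.95% in CG, and 18 and 15 members exceeded their host.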

How the data were processed

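The members, gene lists and bounds were chosen with earlier results of these data known. A kit removed ribosomal RNA and dUTP marked the second strand, per the labels' protocols. The tools named in the submitters' processing notes are fastp and HISAT2, with the build OryCun2.0; for assembly, class codes and abundance no tool is named. Per the file headers, each long non-coding transcript has the authors' FPKM, its coverage as a signal, and CPC and CNCI scores. The deposited gene table holds estimated counts; where a member is alone at its locus, 100% of counts came within 1 count or 1% of coverage times length over 75, so a count is about 0.5 reads.

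FPKM was used as deposited with a pseudocount of 1. Gene counts were scaled to CPM with TMM factors (30% of ratios and 5% of levels trimmed; log2 LAC over CG -0.026). Host genes were matched by the file's gene name and overlap. Of 111 hosts with a LOC name, the RefSeq table of assembly mOryCun1.1 lists 66 and gives a symbol to 10; none of its coordinates was used. Named members are the 15 highest by mean FPKM, for each comparison and direction the 8 that differ most among those of at least 5 FPKM, and those with a listed host. Members named outside this rule are said to be so. Intervals cover counting error only. The size rule was tested on simulated data. Alternatives were a pseudocount of 0.1, a minimum of 5 FPKM, no filter, median-of-ratios scaling, sums per locus, a size rule of 2 and, added after seeing the data, leaving out 7 abundant loci. Python 3.11.15, pandas 2.3.3, numpy 2.4.6, SciPy 1.17.1 and matplotlib were used. No sequence was read, since no genome of this build was used here.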

Additional observations from a re-analysis of the deposited data

How the results depend on the processing

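No paired analysis was possible because each group has 1 library. The counts of members past the size rule depended on the bounds. With a pseudocount of 0.1 they were 112 in LAC against CG (64 higher and 48 lower, so that higher calls became the more frequent) and 89 in HAC against CG (53 higher), with 106 in HAC against LAC (61 higher). At a minimum of 5 FPKM they were 29, 28 and 28, and at a size rule of 2 they were 20, 16 and 17. With no filter, with median-of-ratios factors, with sums per locus or without the 7 most abundant loci each count stayed within 1.5 times that reported, though scaling shifted the share of higher calls in LAC against CG to 27.3%, against 41.8% as deposited.

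The median difference in LAC against CG was 0.50 with a pseudocount of 0.1 and 0.01 with scaling. In HAC against CG it was 0.34 at a minimum of 5 FPKM. In HAC against LAC it was -0.36 at that minimum and turned to 0.07 with scaling, which centres the libraries by construction. With a pseudocount of 0.1, CG stood apart in 52, LAC in 76 and HAC in 45 (30 above and 15 below) of 173 members. Of 102 differences of the 37 named members, all 102 kept their side of the rule with a pseudocount of 0.1 and 98 with scaling; the exceptions are MSTRG.10501.6 and MSTRG.16852.3 in LAC against CG, at 0.76 and 0.58, and MSTRG.10505.1 and MSTRG.8003.1 in HAC against LAC, at -0.69 and 1.15. Depth limits the short members most.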
